A study of Mus musculus with 13 samples.

Results

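The 10 genes described here are pluripotency factors: Pou5f1, Sox2, Nanog, Esrrb, Zfp42, Utf1, Dppa5a, Dppa3, Dppa4 and Dppa2. They were chosen by name as members of the network that keeps embryonic stem cells undifferentiated, with earlier results of these data known. All 10 were among the 35976 gene symbols counted, and all 10 were among the 14702 that passed the filter on low counts. RNA came from 5000 male primordial germ cells a library, the embryonic precursors of sperm, taken at E14.5 and sorted on an Oct4-GFP reporter. Poly(A) RNA was captured on oligo-dT beads.

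Each of 4 Tet1 genotypes had 3 libraries. The TET1 protein is a dioxygenase that turns methylated cytosine into oxidised forms. KO is a Tet1 knockout. HxD stands for a catalytically dead enzyme, and V for an enzyme that stalls once 5-hydroxymethylcytosine is made. WT is the wild type. The labels name each genotype by these short names and do not give the strain, the part of the gene that KO lacks, or whether a library came from 1 embryo or a pool. Every library shares the sex, the day and the reporter. Oct4 is the protein of Pou5f1, so the cells were gated with a reporter of 1 of the genes measured.

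Pluripotency factors are mostly transcription factors and chromatin proteins, and many of them hold one another's genes active. OCT4 and SOX2 bind DNA side by side and activate Nanog, their own genes and many other targets. Germ cells keep this network on after they are specified in the early embryo, and in the male it is turned down as the cells enter mitotic arrest in the fetal testis. Sorted fetal germ cells therefore carry both pluripotency transcripts and the first transcripts of germ cell differentiation.

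Library totals ran from 13584484 to 29641963 counts. Values are CPM, counts brought to the same library total after TMM scaling, and tests are edgeR's quasi-likelihood test over all genes and all 12 libraries with Benjamini-Hochberg adjustment and a threshold of 0.05. Tet1 averaged 213 ± 11.8 CPM in KO, 626 ± 101 in HxD, 480 ± 133 in V and 608 ± 27.0 in WT (SD, n = 3 each), and the KO libraries lay below all others. The germ cell markers Ddx4, Dazl, Dnd1, Nanos3, Kit and Tfap2c were all detected in each genotype, with a summed level of 2194 to 2475 CPM in KO, 1915 to 2633 in HxD, 2231 to 2837 in V and 3173 to 3453 in WT. The markers went both ways: Dazl averaged 849 CPM in KO, 793 in HxD and 953 in V against 1754 in WT, and Ddx4 532, 590 and 704 against 862, while Dnd1 averaged 257, 214 and 224 against 171 in WT, and Tfap2c 128, 135 and 131 against 76.5. Kit averaged 604, 601 and 432 CPM against 462 in WT, and Nanos3 9.54, 8.36 and 9.76 against 8.66. Summed Sertoli markers (Sox9, Amh, Gata4, Wt1, Dhh and Cldn11) were 12.7 to 49.6 CPM in KO, 6.67 to 36.9 in HxD, 11.6 to 307 in V and 7.78 to 93.4 in WT. The high values were those of V 2 (307 CPM) and WT 3 (93.4 CPM), and Sox9 had no count in any HxD or WT library. Leydig and interstitial markers summed to 15.3 to 34.1 CPM in KO, 9.07 to 25.6 in HxD, 6.06 to 23.0 in V and 2.72 to 10.3 in WT. Summed endothelial, macrophage and erythroid markers reached 5.07, 2.58 and 6.91 CPM in KO, 2.48, 1.97 and 2.36 in HxD, 1.58, 22.7 and 6.39 in V, and 4.23, 3.07 and 13.5 in WT. Of the genes averaging at least 8 CPM, 104 had no count in WT 3, 36 in HxD 2 and 33 in V 3, against 0 to 22 in the other libraries. With these 3 libraries set aside edgeR called 0 members in every comparison, as with all 12. Less RNA per cell and fewer cells of a type cannot be told apart in such bulk samples.

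RefSeq promoter windows on build GRCm38.p6 were at hand for 6 of the 10 members, in 9 windows. They are shown because TET1 acts on CpG sites and because OCT4 and SOX2 act through short DNA motifs. No methylation or binding was measured in these libraries. Each sequence is the 250 bases before the annotated start, read 5′ to 3′ on the gene's strand. Capitals mark CG dinucleotides in Pou5f1 and Sox2, a joined SOX and OCT motif in Nanog, and an octamer in Zfp42.
Pou5f1, chr17:35505782-35506031, plus strand: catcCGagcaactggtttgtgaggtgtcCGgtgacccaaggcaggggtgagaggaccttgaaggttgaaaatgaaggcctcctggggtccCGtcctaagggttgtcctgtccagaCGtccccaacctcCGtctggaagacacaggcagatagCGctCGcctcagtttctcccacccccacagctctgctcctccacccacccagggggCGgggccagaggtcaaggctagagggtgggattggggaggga
Sox2, chr3:34649745-34649994, plus strand: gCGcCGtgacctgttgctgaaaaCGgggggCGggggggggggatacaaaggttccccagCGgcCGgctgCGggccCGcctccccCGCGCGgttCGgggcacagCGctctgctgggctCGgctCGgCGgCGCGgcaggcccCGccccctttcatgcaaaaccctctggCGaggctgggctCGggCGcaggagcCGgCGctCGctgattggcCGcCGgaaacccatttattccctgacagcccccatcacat
Nanog, chr6:122707239-122707488, plus strand: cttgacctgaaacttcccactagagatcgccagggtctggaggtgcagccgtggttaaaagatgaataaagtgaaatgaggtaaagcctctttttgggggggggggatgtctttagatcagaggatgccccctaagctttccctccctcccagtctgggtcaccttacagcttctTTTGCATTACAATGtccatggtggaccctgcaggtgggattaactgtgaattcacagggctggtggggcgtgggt
Zfp42, chr8:43307010-43307259, minus strand: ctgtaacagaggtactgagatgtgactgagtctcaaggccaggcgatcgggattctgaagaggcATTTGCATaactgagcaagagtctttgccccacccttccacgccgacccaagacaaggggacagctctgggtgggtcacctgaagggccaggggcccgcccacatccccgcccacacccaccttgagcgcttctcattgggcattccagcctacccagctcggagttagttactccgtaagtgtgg

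The window of Sox2 holds 27 CG dinucleotides, more than 91.4% of the 32851 promoter windows in the RefSeq table, whose median is 6. Utf1 has 14, Zfp42 has 9 and the upstream Pou5f1 start has 8, with 6 before its other start. Esrrb has 6 and 3 before its 2 starts, and Nanog has 3 and 2. The joined motif was searched as CATTGT, any base, then ATGCAAA, on both strands. It lies in 2 of the 32851 windows (0.00609%). Both are overlapping windows of Nanog that hold the same site, which begins 75 bases before the upstream start. The joined motif was added after seeing the data, so its match in Nanog is a description and not a test. The octamer ATGCAAAT, searched on both strands and overlapping the joined motif by its first 7 letters, lies in 1.60% of all windows and, among the members, in that of Zfp42, 186 bases before the start. Neither motif was matched in the windows of Pou5f1, Sox2, Utf1 and Esrrb, which says only that these letters are not there.

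The members covered a wide span of levels. Per kilobase of exon in WT germ cells, Dppa3 had 852 ± 193 CPM per kb (SD, n = 3), Dppa5a 637 ± 64.0 and Utf1 361 ± 29.9. These 3 ranked 8, 16 and 42 among 13539 genes with a known exon length. Pou5f1 followed with 141 ± 10.04 CPM per kb, then Sox2 with 114 ± 8.07, Dppa4 with 82.8 ± 2.76 and Nanog with 64.6 ± 6.55. Esrrb had 24.1 ± 4.08, Zfp42 17.2 ± 3.18 and Dppa2 10.1 ± 0.681 CPM per kb. Between neighbours in that order, the ranges of the 3 WT libraries overlapped for Dppa3 (636 to 1009) and Dppa5a (564 to 680) and were apart for each other neighbouring pair. In KO, HxD and V germ cells the mean of Dppa5a was the higher, with 811, 915 and 936 CPM per kb against 787, 870 and 887 for Dppa3. Exon lengths are unions over annotated transcripts, which lowers the value of a gene with many transcripts such as Esrrb.

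**Figure D1:**
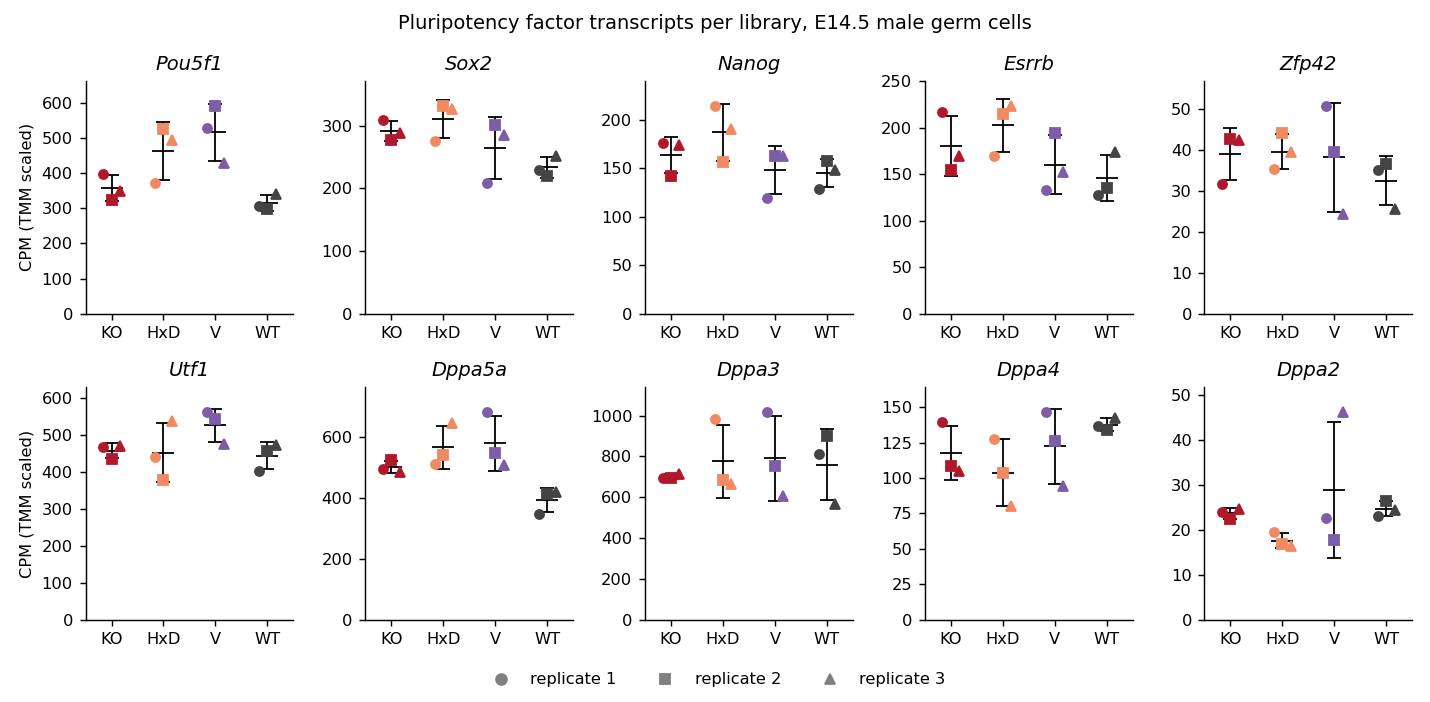
Level of each member in CPM (y axis, from 0) in the 3 libraries of KO, HxD, V and WT germ cells (x axis); the marker shape gives the replicate number, and bars show the mean and SD. The 3 mutant groups of Dppa5a (486 to 682 CPM) lie above its WT libraries (349 to 421 CPM), and Pou5f1 does so in HxD and V.

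No member passed the threshold in KO, HxD or V against WT, and none did between mutants. Over all genes edgeR called 0.218% in KO, 0.0340% in HxD and 0.00% in V against WT. At an unadjusted p under 0.05, 1 member was higher in KO, 4 in HxD and 2 in V, and 0 were lower; the share of all tested genes that was higher at that level was 3.75%, 3.42% and 2.85%. DESeq2, an alternative test, called 0 members in KO, 2 in HxD and 2 in V, both times Pou5f1 and Dppa5a, with 1.70%, 1.39% and 0.586% of all its genes called. The 3 comparisons share the WT libraries and are not independent repeats. The median log2 fold change of the 10 members was 0.18 in KO, 0.33 in HxD and 0.20 in V, beside 0.00, -0.02 and 0.01 over all genes tested.

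Pou5f1, whose protein OCT4 is the central transcription factor of the network, had 398, 325 and 348 CPM in the KO libraries, 371, 526 and 494 in HxD, and 529, 591 and 430 in V, against 307, 299 and 341 in WT. Every HxD and V library was above every WT library, while KO 2 lay within the WT range. The log2 fold change was 0.71 in V (SE 0.17, 95% interval 0.37 to 1.05, edgeR adjusted p = 0.293), 0.55 in HxD (SE 0.17, 0.22 to 0.89, edgeR adjusted p = 0.345) and 0.18 in KO (SE 0.16, -0.16 to 0.51, edgeR adjusted p = 0.916), where it was 0.09 without KO 1. Its unadjusted p ranked 8 among the 14702 genes in V, 89 in HxD and 4726 in KO. By DESeq2 the adjusted p was 0.00236 in V, 0.0310 in HxD and 0.828 in KO. V 2, the library with the highest Sertoli marker sum, was also the highest for Pou5f1, and the V value was 0.60 without it (edgeR adjusted p = 0.501). With WT 3 and V 3 set aside together it was 0.89 (edgeR adjusted p = 0.296), as it was with HxD 2 set aside too (edgeR adjusted p = 0.274); the HxD value was then 0.53 (edgeR adjusted p = 0.522). Over all edgeR alternatives the adjusted p of Pou5f1 ran from 0.0407 to 0.673 in V and from 0.0681 to 0.660 in HxD.

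Between mutants, Pou5f1 was the member with an unadjusted p under 0.05, in 2 of the 3 comparisons. V against KO gave a log2 fold change of 0.53 (SE 0.17, edgeR unadjusted p = 0.00291, adjusted p = 0.744), and the libraries of the 2 genotypes did not overlap. Utf1 was the other member whose V libraries all lay above KO. HxD against KO gave 0.38 (SE 0.16, edgeR unadjusted p = 0.0290, adjusted p = 0.884), with HxD 1 inside the KO range. Dppa2 was the member whose HxD libraries all lay below KO. For V against HxD the difference was 0.16, with a 95% interval of -0.18 to 0.49. Over all genes, V against KO had 0.0204% called by edgeR and 0.425% by DESeq2, and an unadjusted p under 0.05 in 2.29% with V higher and 1.81% with V lower. Groups lay apart with V higher for 5.15% and lower for 5.19%. HxD against KO had 0.00680% called by edgeR and 0.607% by DESeq2, with 1.88% higher and 2.79% lower at that level, and groups apart for 3.69% (higher) and 5.64% (lower). V against HxD had 0.00% called by edgeR and 0.642% by DESeq2, with 3.43% higher and 1.63% lower, and groups apart for 4.79% (higher) and 3.20% (lower); no member was among them. DESeq2 called 0 members in the 3 comparisons.

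Sox2, the partner of OCT4 on DNA, had 309, 277 and 288 CPM in KO, 276, 332 and 326 in HxD, and 208, 301 and 286 in V, against 229, 220 and 252 in WT. The KO and HxD libraries all lay above the WT libraries, and V 1 lay below them. The log2 fold change was 0.32 in KO (SE 0.17, edgeR adjusted p = 0.623), 0.41 in HxD (SE 0.17, edgeR adjusted p = 0.539) and 0.18 in V (SE 0.17, edgeR adjusted p = 1). The V value was 0.34 without V 1 and 0.08 without V 2. Sox2 lies within the long noncoding gene Sox2ot, which had 0 to 265 counts a library beside 3891 to 8077 for Sox2.

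Nanog, a homeodomain factor that stabilises the undifferentiated state, had 176, 142 and 174 CPM in KO, 214, 156 and 190 in HxD, and 120, 162 and 162 in V, against 129, 158 and 148 in WT. The groups overlapped in all 3 comparisons. Its log2 fold changes were 0.18 in KO (95% interval -0.20 to 0.56), 0.37 in HxD (-0.02 to 0.75) and 0.03 in V (-0.35 to 0.41). The KO value was 0.10 without WT 1 and 0.27 without KO 2. The V value changed sign without WT 1 (-0.05), V 2 (-0.04) or V 3 (-0.04), and with WT 3 and V 3 set aside (-0.02).

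Esrrb, an orphan nuclear receptor that sustains self-renewal, had 217, 154 and 169 CPM in KO, 170, 214 and 223 in HxD, and 133, 195 and 153 in V, against 127, 136 and 174 in WT. HxD 1 was lower than WT 3, and the other 2 HxD libraries were above all WT libraries. Its log2 fold change was 0.48 in HxD (SE 0.19, edgeR unadjusted p = 0.0200, adjusted p = 0.550), 0.31 in KO (SE 0.19, edgeR adjusted p = 0.695) and 0.14 in V (SE 0.19, edgeR adjusted p = 1), and the KO value was 0.15 without KO 1 and the V value -0.03 without V 2. Zfp42, a zinc finger gene also called Rex1 and used as a marker of the undifferentiated state, had 31.7, 42.8 and 42.4 CPM in KO, 35.3, 44.0 and 39.4 in HxD, and 50.7, 39.5 and 24.3 in V, against 35.0, 36.6 and 25.5 in WT. Its groups overlapped, with log2 fold changes of 0.27, 0.29 and 0.24 in KO, HxD and V and an SE of 0.335 in each; the V value was -0.01 without V 1, and without WT 3 the values were 0.12, 0.14 and 0.09.

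Dppa5a, which encodes an RNA-binding protein of the KH-domain class, was the member whose KO, HxD and V libraries all lay above the WT libraries. It had 495, 525 and 486 CPM in KO, 512, 542 and 646 in HxD, and 682, 549 and 507 in V, against 349, 413 and 421 in WT. The log2 fold change was 0.35 in KO (SE 0.16, 95% interval 0.03 to 0.67, edgeR adjusted p = 0.552), 0.52 in HxD (SE 0.16, 0.20 to 0.84, edgeR adjusted p = 0.345) and 0.55 in V (SE 0.16, 0.24 to 0.87, edgeR adjusted p = 0.494). The DESeq2 adjusted p was 0.262, 0.0170 and 0.0175. In all, the libraries did not overlap and were higher than WT for 2 members in KO (Dppa5a and Sox2), 3 in HxD (these and Pou5f1) and 3 in V (Dppa5a, Pou5f1 and Utf1). The same held for 8.13%, 5.26% and 5.75% of all genes tested. Mouse annotation lists pseudogene copies of Dppa5a, Dppa3, Nanog and Zfp42, so their counts are uncertain where such copies share reads. Reads shared with such copies were not measured for these or for the other members.

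**Figure D2:**
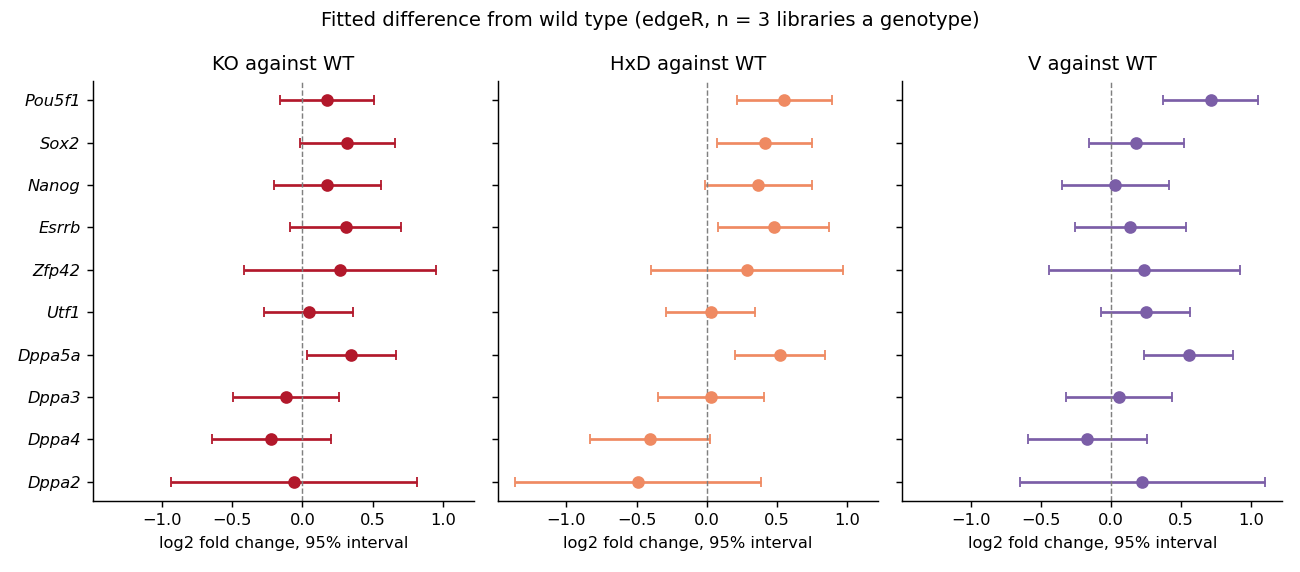
Log2 fold change against WT (x axis) for each member (y axis) in KO, HxD and V germ cells, from edgeR; points are fitted values and bars 95% intervals, with the dashed line at no difference. Intervals clear of 0 are those of Dppa5a in KO, of Pou5f1, Sox2, Esrrb and Dppa5a in HxD, and of Pou5f1 and Dppa5a in V, before adjustment over all genes.

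Utf1, a chromatin-associated factor of embryonic stem cells and germ cells, had 468, 433 and 470 CPM in KO, 440, 377 and 537 in HxD, and 561, 541 and 475 in V, against 401, 456 and 471 in WT. The V libraries all lay above WT, with V 3 only just above WT 3. Its log2 fold change was 0.25 in V (SE 0.16, edgeR adjusted p = 0.850), 0.05 in KO (95% interval -0.27 to 0.36) and 0.03 in HxD (-0.29 to 0.35). The KO value was -0.02 without WT 1, and the HxD value was -0.04 without WT 1 and -0.10 without HxD 3.

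Dppa3, also called Stella, protects DNA methylation in the early embryo and marks germ cells. It had 695, 695 and 716 CPM in KO, 981, 684 and 663 in HxD, and 1017, 752 and 604 in V, against 813, 900 and 568 in WT. HxD 1, V 1 and WT 2 were the high libraries and WT 3 the lowest, and the groups overlapped throughout. Its log2 fold changes were -0.12 in KO (95% interval -0.49 to 0.26), 0.03 in HxD (-0.35 to 0.41) and 0.06 in V (-0.32 to 0.43). The sign turned without WT 2 in KO (0.02), without HxD 1 (-0.18) or WT 3 (-0.14) in HxD, and without V 1 (-0.15) or WT 3 (-0.12) in V. With WT 3 and V 3 set aside the HxD value was -0.14.

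Dppa4 and Dppa2 lie next to each other in the mouse genome, and their proteins act together at chromatin to keep certain promoters free of DNA methylation. They were the 2 members whose HxD libraries all lay below the WT libraries, which was so for 7.22% of all genes; no member was below WT in this way in KO or V, against 8.15% and 6.06% of all genes. Dppa4 had 140, 109 and 105 CPM in KO, 128, 103 and 80.1 in HxD, and 146, 126 and 94.1 in V, against 136, 134 and 143 in WT. Its log2 fold change was -0.41 in HxD (SE 0.21, 95% interval -0.83 to 0.02, edgeR adjusted p = 0.608), -0.22 in KO (SE 0.21, edgeR adjusted p = 0.916) and -0.17 in V (SE 0.21, edgeR adjusted p = 1), and the HxD value was -0.24 without HxD 3. The KO value was -0.36 without KO 1 and -0.15 without KO 3, and the V value was -0.31 without V 1, -0.01 without V 3 and 0.01 with WT 3 and V 3 set aside. Dppa2 had 24.1, 22.4 and 24.7 CPM in KO, 19.6, 16.8 and 16.5 in HxD, and 22.7, 17.8 and 46.2 in V, against 23.2, 26.5 and 24.5 in WT. V 3 stood far above the other 11 libraries for Dppa2. The log2 fold change was -0.49 in HxD (95% interval -1.37 to 0.39), -0.06 in KO (-0.94 to 0.81) and 0.22 in V (-0.65 to 1.10), and the V value was 0.38 without V 1, 0.48 without V 2 and -0.29 without V 3.

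The spread between libraries was mostly larger than counting error. In WT the coefficient of variation between libraries was 7.15% for Pou5f1, 10.05% for Dppa5a and 22.7% for Dppa3, where the counts alone give 1.21%, 1.08% and 0.783%. For Dppa2, the lowest member, it was 6.74% in WT against 4.32% from counting. In V the spread of Pou5f1 was 15.8% and that of Dppa2 was 52.6%. The fitted biological coefficient of variation of the 10 members was 0.154 to 0.376, below the 0.932 common to all genes. The common value also covers weakly expressed genes, and none was computed for genes of like level.

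The members did not move as 1 block across the 12 libraries. Of their 45 pairs, the highest Pearson r of log2 CPM was 0.90 for Sox2 and Esrrb, and it was 0.82 with the genotype means removed. Pou5f1 and Dppa5a had r = 0.78, and 0.38 with the genotype means removed. Pou5f1 and Nanog had r = 0.05, and -0.27 with the genotype means removed. Dppa3 ran against Sox2 with r = -0.57, or -0.82 with the genotype means removed, and Dppa4 against Sox2 with r = -0.66, or -0.44 with the genotype means removed. These values describe 12 libraries that share 1 scaling, and carry no test.

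**Figure D3:**
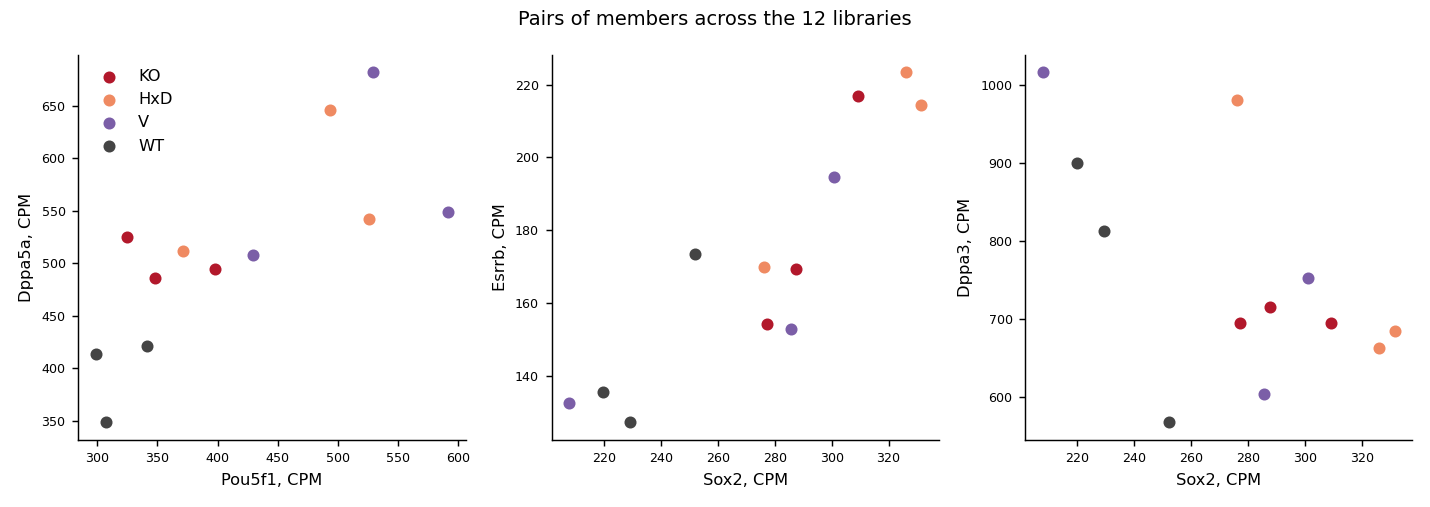
CPM of 1 member against another in the 12 libraries, coloured by genotype: Pou5f1 and Dppa5a, Sox2 and Esrrb, and Sox2 and Dppa3. The 3 WT libraries sit at the low end for Pou5f1 and Dppa5a (up to 341 and 421 CPM), and Esrrb is high where Sox2 is high, while Dppa3 is not.

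Among 8939 named genes averaging at least 8 CPM, the 5 whose log2 CPM followed Pou5f1 most closely over the 12 libraries were Tmed9 (Pearson r = 0.94), Fam222a (0.87), Ptpn23 (0.87), Poglut1 (0.82) and Ruvbl2 (0.80). They were picked as the highest of 8939 values over 12 libraries, so high values are built in and carry no test. Genotype means were not removed here. Tmed9 encodes a cargo receptor of the early secretory pathway. It averaged 158 CPM in KO, 182 in HxD and 177 in V against 147 in WT, a narrower span than that of Pou5f1 (357, 464 and 516 CPM against 316).

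The wider network was read from 27 other genes, 16 of them transcription factors and 11 targets, ligands or RNA-binding proteins. Of these, 24 passed the low-count filter, and Fgf4, Foxd3 and Tbx3 did not: Foxd3 had no count in any library, Tbx3 had 2 counts in KO 2 and Fgf4 had 74 in HxD 2 and 51 in WT 2. EdgeR called 0 of the 24 in each of the 6 comparisons. At an unadjusted p under 0.05, 1 was higher and 1 lower in KO, 2 higher and 2 lower in HxD, and 2 higher and 2 lower in V. The share of all genes that was lower at that level was 4.54%, 4.82% and 3.20%. The median log2 fold change of the 24 was 0.06 in KO, 0.13 in HxD and -0.05 in V. DESeq2 called 1 of them, Tfap2c in HxD. The libraries lay apart from WT for 4 genes higher and 2 lower in KO, 2 and 2 in HxD, and 2 and 1 in V. Groups lay apart with higher values for 8.13%, 5.26% and 5.75% of all genes, and with lower values for 8.15%, 7.22% and 6.06%. The genes described next were picked as those with the 3 smallest unadjusted p in each comparison with WT.

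Tfap2c, a transcription factor needed for germ cell specification and also in the germ cell marker list, had 130, 120 and 135 CPM in KO, 114, 136 and 155 in HxD, and 131, 149 and 114 in V, against 48.2, 85.0 and 96.3 in WT. All 9 mutant libraries were above the WT libraries. Its log2 fold change was 0.75 in KO (SE 0.22, edgeR adjusted p = 0.212), 0.82 in HxD (SE 0.22, edgeR adjusted p = 0.256) and 0.78 in V (SE 0.22, edgeR adjusted p = 0.494). Without WT 1, its lowest library, these were 0.50, 0.58 and 0.54. The groups lay apart in the same way for 8.13%, 5.26% and 5.75% of all genes. Klf2, a Krüppel-like factor of naive pluripotency, had 34.2, 87.3 and 59.1 CPM in HxD and 61.3, 54.2 and 32.7 in V, against 25.7, 24.7 and 30.1 in WT. Its log2 fold change was 1.17 in HxD (SE 0.36, edgeR adjusted p = 0.377) and 0.88 in V (SE 0.36, edgeR adjusted p = 0.757). In KO, with 22.8, 42.7 and 22.5 CPM, it overlapped WT.

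The RNA-binding genes Lin28a and Lin28b have proteins that block maturation of let-7 microRNAs. Lin28b had 15.7, 21.8 and 27.3 CPM in KO, 27.0, 4.45 and 25.7 in HxD, and 31.1, 23.2 and 54.7 in V, against 48.0, 46.7 and 61.6 in WT. Its KO and HxD libraries lay below WT, and V 3 lay within the WT range. The log2 fold change was -1.27 in KO (SE 0.46, edgeR adjusted p = 0.381) and -1.45 in HxD (SE 0.47, edgeR adjusted p = 0.401). Lin28a had 348, 291 and 290 CPM in KO, 282, 285 and 239 in HxD and 256, 277 and 252 in V, against 399, 337 and 289 in WT. The HxD and V libraries lay below WT, and the log2 fold change in V was -0.38 (SE 0.16, edgeR adjusted p = 0.780). Klf5 in KO had 67.4, 63.8 and 71.0 CPM against 35.5, 39.6 and 65.7 in WT, with KO 2 below WT 3. Its log2 fold change was 0.52 (SE 0.30, edgeR adjusted p = 0.644), or 0.84 without WT 3.

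**Figure D4:**
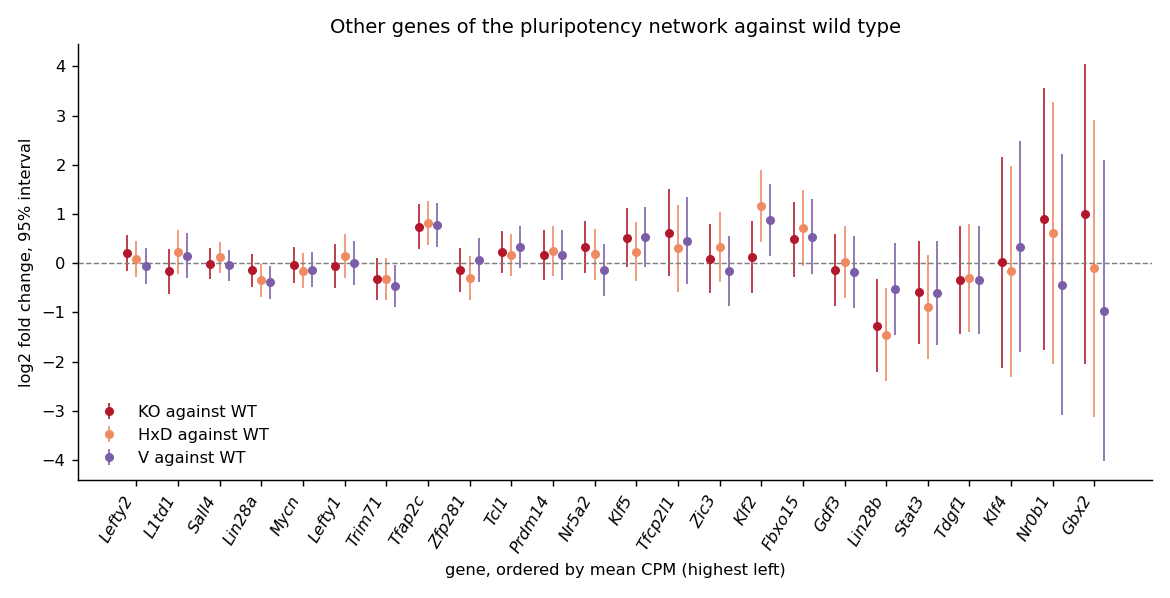
Log2 fold change against WT (y axis) for the 24 tested genes of the wider network (x axis, highest mean CPM at the left) in KO, HxD and V; points are edgeR's fitted values and bars 95% intervals. Before adjustment over all genes, intervals lie above 0 for Tfap2c in KO, HxD and V and for Klf2 in HxD and V. They lie below 0 for Lin28b in KO and HxD, Lin28a in HxD and V, and Trim71 in V. The weakly expressed Klf4, Nr0b1 and Gbx2 have wide intervals.

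Early genes of male germ cell differentiation were mostly weak. Dnmt3l had no count in KO, HxD or V, but averaged only 1.02 CPM in WT and was not tested. Nanos2, an RNA-binding regulator of the male germ cell fate, averaged 0.757 CPM in KO, 1.57 in HxD and 7.24 in V against 8.62 in WT. The log2 fold changes of Nanos2 were -3.50, -2.45 and -0.25 in KO, HxD and V (edgeR unadjusted p = 0.105, 0.230 and 0.895). Nanos1, another RNA-binding gene of the same family, had higher means than WT, with 7.95, 11.3 and 5.29 CPM against 4.48. Its log2 fold changes were 0.83 (SE 1.03), 1.33 (SE 1.04) and 0.24 (SE 1.02) in KO, HxD and V. The summed level of Nanos2, Dnmt3l, Piwil4, Tdrd9, Mov10l1 and Nanos1 was 114 to 131 CPM in KO, 101 to 161 in HxD and 97.3 to 132 in V, against 139 to 268 in WT. Mov10l1, an RNA helicase of the piRNA pathway, made up most of it, with 109, 106 and 92.7 CPM on average against 156 in WT. EdgeR called 0 of the 5 tested genes in any comparison with WT. Mov10l1 was lower at an edgeR unadjusted p of 0.0297, 0.0198 and 0.00258 (edgeR adjusted p = 0.538, 0.548 and 0.575). In the V and the KO libraries the differentiation sum and the germ cell marker sum lay below WT, while Pou5f1 lay above WT in V and overlapped WT in KO. In HxD the germ cell marker sum lay below WT, the differentiation sum overlapped WT, and Pou5f1 lay above WT. Within the germ cell marker sum Dazl differed most, with means of 849, 793 and 953 CPM in KO, HxD and V against 1754 in WT. Ddx4 also averaged below WT, while Dnd1 and Tfap2c averaged above WT in KO, HxD and V. Kit averaged above WT in KO and HxD, and Nanos3 in KO and V. The part of either sum in the Pou5f1 values was not tested.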

How the data were processed

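RNA libraries of E14.5 male germ cells were sequenced. What the authors deposited is a table of raw counts, whole numbers per gene symbol. Tools named in the submitters' processing notes are STAR 2.7.10b, featureCounts 2.0.3, Trim Galore 0.6.7, SAMtools 1.9 and FastQC, and the builds are GRCm39 and mm10, with no role stated for any. No source used here gives the annotation or strand setting, so reads of overlapping genes cannot be told apart. Columns for 12 samples were used; 1 column that names no sample was not. WT 4 of the labels was not analysed here.

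Counts were filtered with edgeR's default (14702 genes kept), scaled by TMM and fitted in edgeR 4.0.16 with genotype as the only term, two-sided, with Benjamini-Hochberg adjustment. SEs come from the F statistics. DESeq2 1.42.0 was the alternative test. The fit was tested on simulated data. Nothing says that replicates are separate animals, so p-values measure the spread between these libraries, which may be technical. The members and lists were chosen with earlier results of these data known. Named are all members against WT, members with an unadjusted p under 0.05 between mutants, and from the wider network the 3 genes with the smallest p in each comparison with WT. Exon lengths are from GENCODE M21 and promoters from RefSeq, both on GRCm38. The joined SOX and OCT motif was added after seeing the data.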

Additional observations from a re-analysis of the deposited data

How the results depend on the processing

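Alternatives were RLE scaling, DESeq2, no or a stricter expression filter (a mean of at least 8 CPM), fits on 2 genotypes, a replicate block, leaving out each library, and, chosen after seeing the data, setting WT 3 and V 3 aside together, without or with HxD 2. Of 574 values of single genes under alternatives, 545 kept their direction and side of the threshold, 22 changed direction and 7 were newly called. No named gene was called in the fit reported, so keeping its side means staying uncalled. DESeq2 called 2 members in HxD and 2 in V, and 1 gene of the wider network in HxD. With no expression filter edgeR called more genes over all, 67 in HxD and 148 in KO against WT, where the fit reported called 5 and 32. In that setting it called 1 member in V (Pou5f1, log2 fold change 0.71, edgeR adjusted p = 0.0407) and 1 network gene in HxD (Tfap2c, 0.83, edgeR adjusted p = 0.0416). Over all edgeR alternatives the adjusted p ran from 0.0407 to 0.673 for the first and from 0.0416 to 0.766 for the second. The cause was not tested. All other counts of members and network genes were 0, as in the fit reported. The sign of small differences changed when 1 library was left out. The range was -0.29 to 0.023 for Dppa3 and -0.021 to 0.090 for Utf1 in KO, and -0.18 to 0.17 and -0.10 to 0.14 for the same genes in HxD. In V it was -0.046 to 0.17 for Nanog, -0.15 to 0.22 for Dppa3, -0.29 to 0.48 for Dppa2, -0.0089 to 0.48 for Zfp42 and -0.029 to 0.28 for Esrrb. With WT 3 and V 3 set aside, Dppa3 in HxD was -0.14, and in V Nanog was -0.022, Dppa2 -0.30 and Dppa4 0.014; with HxD 2 set aside too these were -0.046, -0.019, -0.29 and 0.017. Replicate numbers showed no clear pairing of libraries across genotypes when their deviations from the genotype means were correlated. Same-numbered libraries had correlations of -0.14 to 0.12 and differently numbered ones -0.12 to 0.21. Of the 12 libraries, 4 correlated best with their own number. The replicate block called 0 members and 0 network genes in any comparison, as without it. Over all genes it called 104 in KO and 45 in HxD against WT, where the fit without it called 32 and 5. Pou5f1 in V was 0.71 with the block (edgeR adjusted p = 0.0853).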
